A study of Caenorhabditis elegans with 2 samples.

Results

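The 475 genes described here are all genes annotated as small nucleolar RNA (snoRNA, 346 genes) or small nuclear RNA (snRNA, 129 genes) on the 6 nuclear chromosomes of Caenorhabditis elegans, out of 46890 annotated genes. Membership followed the annotated biotype, and a gene was called near a peak when a peak summit lay within 200 bp of it. Chromatin immunoprecipitation followed by sequencing (ChIP-seq) mapped the binding of eGFP-tagged CEH-39, a ONECUT homeobox protein, in 1 group of 2 biological replicates. Both came from strain OP169, genotype unc-119(ed3) III with the integrated transgene wgIs169, as whole embryos of mixed stage and mixed sex. The factor was therefore measured as a tagged transgene product, and in no single cell type. The files gave each peak's position and a deposited signal value, without read counts, so depth is unknown. Shares carry 95% exact (Clopper-Pearson) intervals over genes or peaks, which cover counting error only, since near-identical copies and neighbouring genes are not independent.

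snoRNAs guide chemical modification of ribosomal and other RNAs and work in complexes with core proteins such as fibrillarin. snRNAs form the cores of the particles that splice pre-mRNA, and in nematodes the spliced leader RNAs SL1 and SL2 donate the leader exon in trans-splicing. Many of these genes have promoters of their own: snRNA genes carry a proximal sequence element bound by the SNAP complex, and some short RNA genes carry the A and B boxes of RNA polymerase III promoters, as tRNA genes do. Others lie inside introns of host genes.

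The bases around the 5′ end show which letters lay beside the peaks, and the genes below have summits of the authors' reproducible peak list (described after the sequences) within 200 bp. All are 120 bases long, 100 upstream and 20 into the gene, from the RefSeq WBcel235 (ce11) assembly on the gene's strand, 5′ to 3′. The first 5 are shown for the letters AACCC followed after 4 to 9 bases by TGTC, in capitals. They are the SL2 RNA gene sls-2.8 at chrIII:12250365-12250484 (plus strand), the snoRNA genes Y53F4B.47 at chrII:15025874-15025993 (minus strand) and ZK994.7 at chrV:8500479-8500598 (plus strand), and the snRNA genes sup-6 at chrII:12944948-12945067 (minus strand) and F54D8.7 at chrIII:5080879-5080998 (minus strand).
sls-2.8: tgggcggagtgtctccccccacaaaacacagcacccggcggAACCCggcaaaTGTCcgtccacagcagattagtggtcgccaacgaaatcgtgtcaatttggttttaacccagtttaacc
Y53F4B.47: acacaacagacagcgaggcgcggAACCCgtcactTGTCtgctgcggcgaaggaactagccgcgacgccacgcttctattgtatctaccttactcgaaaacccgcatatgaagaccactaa
ZK994.7: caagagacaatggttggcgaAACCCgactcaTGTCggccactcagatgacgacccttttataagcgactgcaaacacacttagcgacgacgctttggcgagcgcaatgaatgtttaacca
sup-6: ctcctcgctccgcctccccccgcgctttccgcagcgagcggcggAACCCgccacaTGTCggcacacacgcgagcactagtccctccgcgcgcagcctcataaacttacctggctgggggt
F54D8.7: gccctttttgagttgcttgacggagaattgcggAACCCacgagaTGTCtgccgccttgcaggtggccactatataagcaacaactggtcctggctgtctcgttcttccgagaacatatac
The next 4 are snoRNA genes shown for GTTCNANNC, the central letters of the B box, in capitals: C51F7.3 at chrV:12303608-12303727 (plus strand), M106.6 at chrII:10840217-10840336 (plus strand), T03F7.8 at chrV:11314158-11314277 (plus strand) and Y43F8C.22 at chrV:19643168-19643287 (minus strand).
C51F7.3: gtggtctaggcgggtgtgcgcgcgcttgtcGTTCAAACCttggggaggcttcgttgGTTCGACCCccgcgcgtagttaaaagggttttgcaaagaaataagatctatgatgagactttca
M106.6: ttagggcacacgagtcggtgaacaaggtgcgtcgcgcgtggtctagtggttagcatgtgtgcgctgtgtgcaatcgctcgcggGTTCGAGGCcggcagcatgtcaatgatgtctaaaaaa
T03F7.8: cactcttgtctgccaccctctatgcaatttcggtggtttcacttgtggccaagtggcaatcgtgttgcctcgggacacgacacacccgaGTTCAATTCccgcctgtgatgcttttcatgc
Y43F8C.22: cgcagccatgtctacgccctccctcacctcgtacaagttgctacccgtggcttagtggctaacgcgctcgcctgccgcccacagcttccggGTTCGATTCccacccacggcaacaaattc
The last 2 have neither pattern, carry no capitals, and are the members with the highest peak signal: the snoRNA gene F09G2.14 at chrV:7196561-7196680 (minus strand) and the SL2 RNA gene sls-2.1 at chrII:5844765-5844884 (plus strand).
F09G2.14: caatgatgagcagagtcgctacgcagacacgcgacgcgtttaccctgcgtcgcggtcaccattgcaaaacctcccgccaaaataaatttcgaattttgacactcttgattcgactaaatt
sls-2.1: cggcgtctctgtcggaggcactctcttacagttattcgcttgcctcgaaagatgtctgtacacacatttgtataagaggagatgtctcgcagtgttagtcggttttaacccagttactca

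Summits of the authors' list filtered by the irreproducible discovery rate (IDR, a measure of replicate concordance, 1244 peaks) lay near 47 of the 475 members, or 9.89% (interval 7.36% to 12.9%). By the same rule, summits lay near 5.39% of 612 tRNA genes, 4.04% of 19973 protein-coding genes and 2.44% of all annotated genes. Counted from the 5′ end alone, so that gene length plays no part, the members again numbered 47 (9.89%), against 5.23% of tRNA genes and 2.53% of protein-coding genes. This limit leaves out the fullest single bin of protein-coding genes, −250 to −201 bp from the 5′ end with 148 summits, and those farther upstream. The bins −200 to −151 bp (146 summits) and −150 to −101 bp (142 summits) lie within it. A window from 1000 bp upstream to 200 bp downstream of a start held an IDR summit for 6.51% of 19865 protein-coding gene names. The members' interval lay above that of protein-coding genes by both rules. It overlapped that of tRNA genes by the whole-gene rule (3.74% to 7.49%) and lay just above it by the 5′-end rule (3.6% to 7.3%). A randomly placed interval of 125 bases, the members' median length, has an IDR summit within 200 bp at 0.649% of genome positions. Summits were near 14 of 129 snRNA genes (10.9%, interval 6.06% to 17.5%) and 33 of 346 snoRNA genes (9.54%, interval 6.66% to 13.1%). With the 622 strongest IDR peaks alone, 11 snRNA genes and 11 snoRNA genes were near one. These snRNA genes include sup-39 and mir-1831, a record inside it at the same peak. The share of other genes near these 622 peaks is not given here, so the counts have no background beside them.

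**Figure D1:**
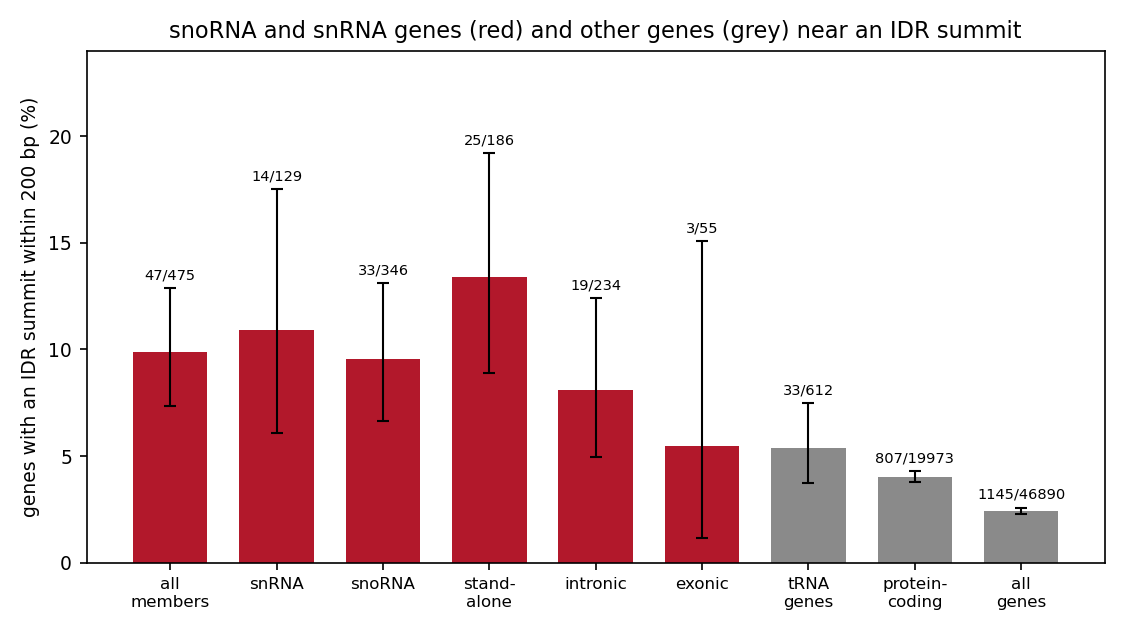
Percentage of genes with an IDR summit within 200 bp, by class of snoRNA and snRNA gene (red) and for tRNA, protein-coding and all genes (grey). Bars are shares, whiskers 95% exact intervals, and labels give genes near a summit over genes in the class. All members stand at 9.89%, against 4.04% for protein-coding genes.

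Position within other genes divided the members into 186 stand-alone genes, 234 wholly inside an intron of a protein-coding gene, and 55 overlapping an exon. Stand-alone here means free of protein-coding transcripts, and transcripts of other biotypes may overlap. Of the stand-alone genes 25 were near an IDR summit (13.4%, interval 8.89% to 19.2%). With transcripts of other biotypes also counted as hosts, 149 genes were stand-alone, 18 of them near a summit. By the main rule, the intronic genes had 19 (8.12%, interval 4.96% to 12.4%) and the exonic genes 3 (5.45%, interval 1.14% to 15.1%). These intervals overlap. Among intronic genes, 15 of 186 with the host on the same strand were near a summit (8.06%), as were 4 of 48 with the host on the opposite strand (8.33%). Of the 47 IDR peaks near members 28 (59.6%) lay in a window from 1000 bp upstream to 200 bp downstream of a protein-coding start, against 75.6% of the other IDR peaks. This was so for the strongest summit of 18 of the 25 stand-alone and 8 of the 19 intronic members. Whether such peaks belong to the small RNA gene or to its neighbour cannot be told apart from positions.

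The summits sat just upstream of the small RNA genes. At the 47 genes the strongest summit had a median position of −34 bp from the 5′ end (quartiles −70 and −11, range −112 to 76). It was upstream of the gene in 38 (80.9%, interval 66.7% to 90.9%), inside it in 9, and past the 3′ end in 0. The 2 bins of 50 bp directly upstream held 18 summits each, or 3.79 summits per 100 members. The same bins held 0.436 (−100 to −51 bp) and 0.345 (−50 to −1 bp) per 100 protein-coding genes, whose fullest bin was −250 to −201 bp with 0.741. The 3 members nearest to the 200 bp limit from inside were F39B2.14 at 112 bp, ZK930.15 at 102 bp and M106.6 at 100 bp from a summit. Just outside were F54E7.10 in an intron of the ribosomal protein gene rps-12 at 235 bp, K02F3.15 at 251 bp and K10G6.10 at 306 bp.

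**Figure D2:**
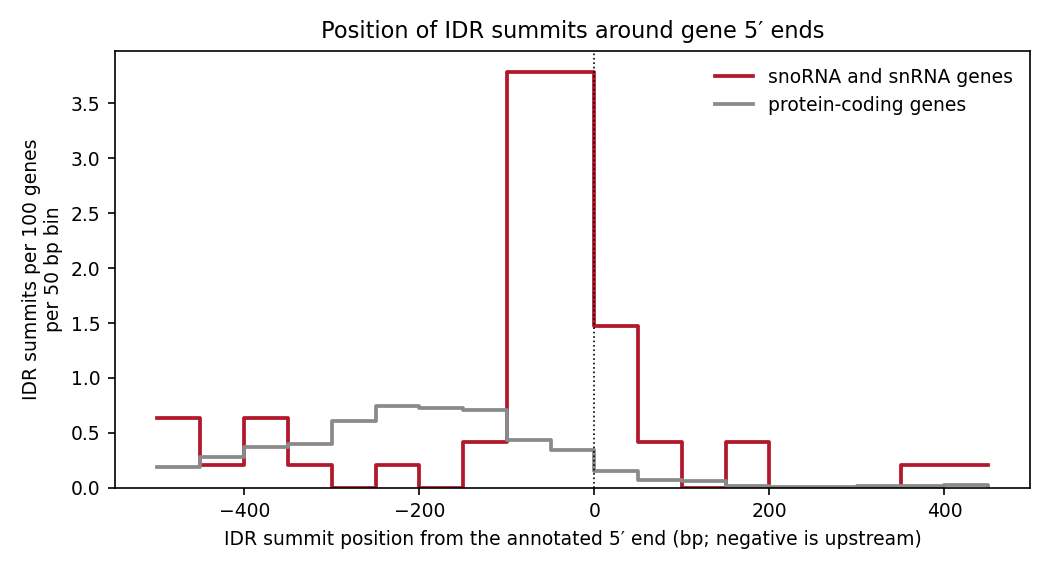
IDR summits per 100 genes in bins of 50 bp by position from the annotated 5′ end, for snoRNA and snRNA genes (red) and protein-coding genes (grey). The members' summits fill the 100 bp upstream, at 3.79 per 100 genes and bin, while those of protein-coding genes are spread farther upstream with a maximum of 0.741.

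The peaks were of middling strength within the list. The 47 members took in 47 IDR peaks, 3.78% of the list, with 2 peaks each near a pair of members (C51F7.3 with C51F7.4, and sup-39 with mir-1831, a 22-base record inside it). Their median signal was 102 (77.2 to 245), against 109 (76.5 to 554) over the other 1197 IDR peaks, and 20 stood among the 622 strongest. None of the 47 was also near a tRNA gene, whereas 30 IDR peaks were. The snRNA genes had a median strongest signal of 131 (82.1 to 232) and the snoRNA genes 98.5 (77.2 to 245).

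The strongest peak was that of F09G2.14, a stand-alone snoRNA gene, with a signal of 245, rank 88 of the IDR list, 93 bp upstream. Its peak ranked 90 in replicate 1 and 72 in replicate 2. The summit lay at −243 bp from a start of the protein-coding gene F09G2.2. sls-2.1 followed with 232 (ranks 133 in replicate 1 and 66 in replicate 2, summit 48 bp upstream). Next was the snRNA gene T11F9.15 at chrV:11980118-11980261 with 231 (ranks 134 and 48, summit 49 bp upstream). Another record of that name, at chrV:11478148-11478291, was not near an IDR summit. The summit of the first T11F9.15 record lay at −346 bp from a start of snr-4, which encodes an Sm-family snRNP protein. sls-2.8 had a signal of 187 with a summit 10 bp upstream, and Y53F4B.47 had 186 with a summit 76 bp upstream, at −145 bp from a start of cmtr-1, a predicted cap methyltransferase gene. These 5 were all stand-alone.

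The 5 SL2 RNA genes near a summit differed in strength and position. sls-2.1 had signals of 167 in replicate 1 and 60.6 in replicate 2, sls-2.8 had 163 and 38.4, sls-2.4 had 123 and 68.1, and sls-2.2 had 102 and 49.2. sls-2.4 had an IDR signal of 173 with a summit 28 bp upstream, and sls-2.2 had 143 with a summit 39 bp upstream. sls-2.7 was the weakest of them, with an IDR signal of 82.1 and a summit 76 bp inside the gene from its 5′ end. By name, 5 of 18 sls-2 genes were near a summit (27.8%, interval 9.69% to 53.5%), while 0 of 12 sls-1 genes were. Of the 12 smy genes, which encode the SmY RNAs of nematode trans-splicing, smy-2 was near a summit (signal 85.6, 21 bp inside the gene).

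Other strong stand-alone members were the snRNA gene F38E11.11 at chrIV:9444642-9444763 (IDR signal 153, summit 68 bp upstream) and the snoRNA gene C36E8.11 (146, 61 bp upstream). The C36E8.11 summit lay at −260 bp from a start of tif-1A. The snRNA genes sup-39 and sup-6, both intronic, and H27M09.6, stand-alone, belong to 1 sequence family. They had IDR signals of 131, 110 and 112. Their ranks were 534 in replicate 1 and 595 in replicate 2 for sup-39, 944 and 65 for sup-6, and 748 and 885 for H27M09.6. The summit was 22 bp upstream of sup-39 but 13 bp inside sup-6 and 68 bp inside H27M09.6. By chromosome, members near a summit numbered 12 of 90 on I, 10 of 87 on II, 6 of 67 on III, 6 of 100 on IV, 12 of 95 on V and 1 of 36 on X, where D2021.6 had the weakest signal of all (77.2). The share on X was 2.78% (interval 0.0703% to 14.5%), and its interval overlapped those of all other chromosomes. Shares of other genes by chromosome are not given here, so these counts describe no trait of X.

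Intronic members were led by C51F7.3 in frm-7, with a signal of 175 and a summit 83 bp upstream of it. The same peak lies inside C51F7.4, an exon-overlapping snoRNA gene next to it. Its ranks were far apart, 724 in replicate 1 and 19 in replicate 2. ZK994.7, in an intron of the peroxidasin gene pxn-1, had 136 (ranks 734 and 76, summit 13 bp upstream, 5677 bp from the nearest protein-coding start). The snRNA gene R07E5.16 at chrIII:10989679-10989780, in the dynein gene dhc-4, had 114, with its summit at −1772 bp from the nearest start. M106.6, in an intron of the condensin gene mix-1, had 93.3, with its summit at 3410 bp from the nearest start. All 4 summits lay more than 1000 bp from a protein-coding start. Also nearer to a protein-coding start was the intronic Y49E10.36 in the histone gene his-72 (signal 103, summit inside the gene). So was M03D4.78, a stand-alone member upstream of the kinesin gene zen-4 (signal 115).

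Replicates gave the peaks unequal support. A relaxed summit lay within 200 bp of 46 of the 47 members in replicate 1, of 45 in replicate 2, and of 44 in both. T06D8.11 lacked one in replicate 1, and K02C4.7 and F17C11.24 lacked one in replicate 2. A deposited q-value under 0.05 was reached at 46 in replicate 1 and at 32 in replicate 2, in lists that held 3958 and 790 such peaks in all. Among the 1244 strongest peaks of its own replicate, an IDR peak near a member was found for 39 of 47 in replicate 1 (83%, interval 69.2% to 92.4%), against 89.1% of the other IDR peaks (interval 87.1% to 90.8%). In replicate 2 this was 37 of 47 (78.7%, interval 64.3% to 89.3%), against 55.5% of the other IDR peaks (interval 52.6% to 58.3%). The median rank of the peaks near members was 892 in replicate 1 and 459 in replicate 2, against 611 and 775.5 for the other IDR peaks. The lowest replicate 2 ranks were at F59C6.15 (763 in replicate 1 and 26674 in replicate 2), D2021.6 (1117 and 23020) and Y38F2AR.14 (790 and 15372).

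**Figure D3:**
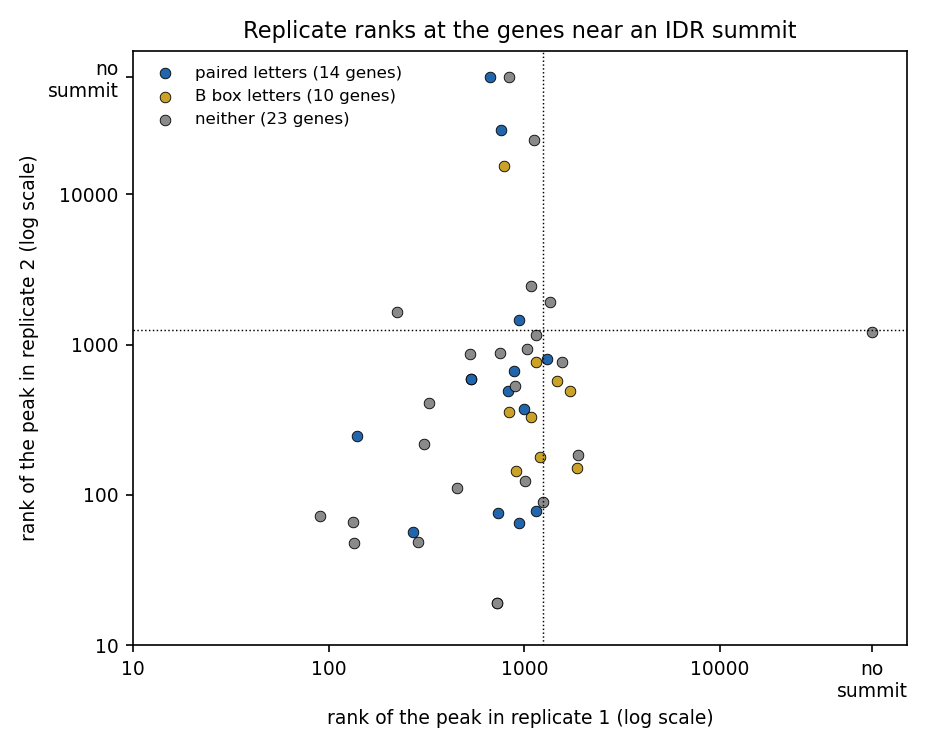
Rank of the strongest relaxed peak within 200 bp in replicate 1 (x) and replicate 2 (y), both on log scales, at the 47 members near an IDR summit, coloured by letters around the 5′ end. Dotted lines mark rank 1244, and points on the margins had no summit in that replicate. Most points lie inside both lines, and 2 members had no summit in replicate 2.

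Relaxed summits in both replicates lay near 121 of 475 members (25.5%, interval 21.6% to 29.6%), of which 44 also had an IDR summit. The relaxed lists hold background peaks by construction. They reached 27% of tRNA genes, 32.7% of protein-coding genes, whose long intervals catch more summits, and 18.1% of all genes. The share of genome positions for a 125-base interval was 4.53%. By 5′ end alone, 110 members had summits in both lists (23.2%, interval 19.4% to 27.2%), against 7.26% of protein-coding genes. Here too, summits more than 200 bp upstream of protein-coding genes were left out. By the whole-gene rule the share was 31.7% for stand-alone genes and 22.2% for intronic genes. Of the members, 77 had summits in both relaxed lists without an IDR summit and 233 had none in either list. Ordered by the worse of the ranks in the 2 replicates, the first without an IDR summit was the snoRNA gene M7.15 (ranks 703 in replicate 1 and 938 in replicate 2), followed by F32E10.10 (1536 and 473), smy-3 (1623 and 1469), Y71F9AL.24 in arx-1 (1422 and 1664) and F12F6.11 (1774 and 548).

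Shares also differed with the letters around the 5′ end. The paired letters AACCC and TGTC within 100 bp upstream, without B box letters, marked 61 members, and 14 of them were near an IDR summit (23%, interval 13.2% to 35.5%). GTTCNANNC, from 100 bp upstream to 20 bases into the gene, marked 49 more, with 10 near (20.4%, interval 10.2% to 34.3%), all 10 of them snoRNA genes. Neither pattern occurred in 364 members, with 23 near (6.32%, interval 4.05% to 9.33%). On protein-coding genes these letters were rare, at 0.125% for the pair and 1.79% for the box. Both patterns were sought on the gene's strand only, and both were chosen after the sequences beside the peaks had been seen, so the shares are descriptions. The box was first sought as GGTTCNA upstream only, and was changed after that form had been counted. The later form drops the first G, requires a C at its end and reaches into the gene. Matches were therefore both gained and lost. T06C12.16, near a summit, has GGTTCNA upstream but counts under neither pattern in the later form. In the first form 7 of 26 members with it were near (26.9%), and 27 of 389 with neither pattern (6.94%).

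Among intronic members the split was wide. Of those with the pair 9 of 33 were near a summit (27.3%, interval 13.3% to 45.5%), of those with the box 8 of 21 (38.1%, interval 18.1% to 61.6%), and of those with neither 2 of 179 (1.12%, interval 0.136% to 3.98%). sup-39 and mir-1831 share the same peak and the same copy of the pair. Both are counted in these 9 and in the share over all members with the pair. The first form of the box gave 5 of 14 intronic members near a summit (35.7%) and 6 of 188 with neither (3.19%). Stand-alone members did not follow this order. Near a summit were 5 of 27 with the pair (18.5%, interval 6.3% to 38.1%) and 1 of 25 with the box (4%, interval 0.101% to 20.4%). With neither pattern, 19 of 134 were near (14.2%, interval 8.76% to 21.3%). These 3 intervals overlap, and members whose letters differ slightly from a pattern count under neither. The 25 with the box include 10 SL1 RNA genes of 1 sequence, without which the share was 1 of 15 (6.67%, interval 0.169% to 31.9%). The pair sat at a similar distance from the gene with and without a peak, with TGTC starting at a median of −50.5 in members near a summit and −48 in the others. Summits near the pair had a median position of −21 bp from the 5′ end, and those near the box of −70 bp, all 10 upstream. No window with the box overlapped an annotated tRNA gene (0 of 50).

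**Figure D4:**
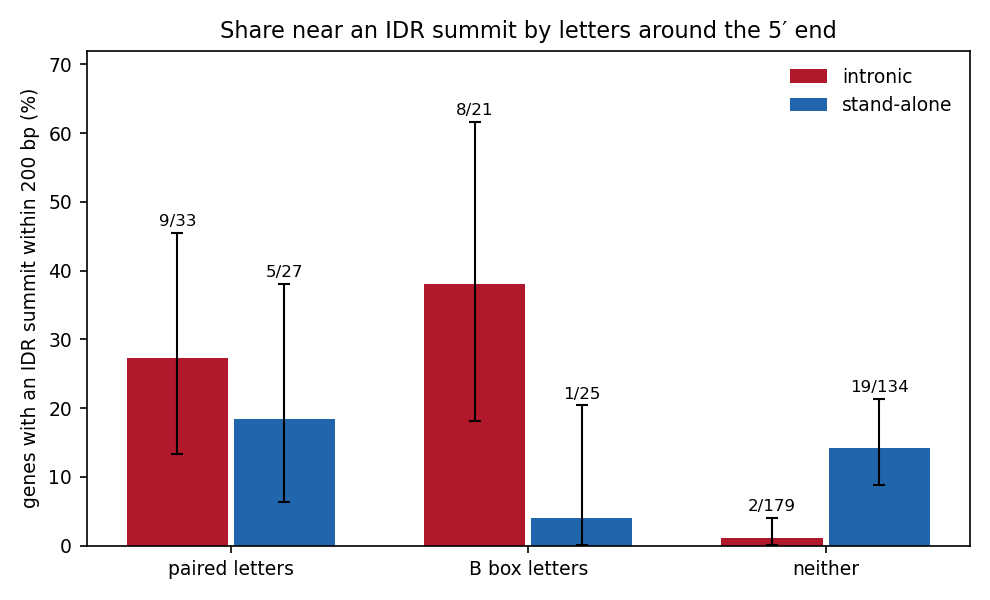
Percentage of intronic (red) and stand-alone (blue) members with an IDR summit within 200 bp, by the letters found around the 5′ end. Whiskers are 95% exact intervals and labels give counts. Intronic members with neither pattern stand at 1.12% and stand-alone members with neither at 14.2%.

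The ONECUT core letters were sparse under these peaks. Within 50 bp of the summit, on either strand, ATCGAT occurred in 0 of the 47 peaks near members, which allows a share of up to 7.55% (upper bound of the interval), against 18.1% of the other 1197. ATTGAT occurred in 2.13% and 6.02%, GAGAGA in 8.51% and 26%, ACGCAG in 6.38% and 20.1%, and GACGCA in 12.8% and 18.1%, with peaks near members given first in each pair. TATAAA went the other way, in 10.6% of the peaks near members and 4.18% of the others. A lack of these letters says only that they were not in that window.

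The snRNA genes were also grouped by sequence. Linked by sequence (edit distance of at most 20% of the length), 103 of the 129 snRNA genes fell into 8 families of 3 or more records. The SL2 family had 5 of 15 records near an IDR summit (33.3%, interval 11.8% to 61.6%), namely sls-2.1, sls-2.2, sls-2.4, sls-2.7 and sls-2.8. The family of sup-6, sup-39 and H27M09.6, of about 165 bases, had 3 of 13 (23.1%). Families of B0205.15, F32B5.9 and F10D2.13 had 2 of 23, 2 of 12 and 1 of 5. The SL1 family, with 10 records of 1 sequence, had 0, and none of them had a relaxed summit in either replicate. The family of Y47H9A.2, of 185 to 187 bases, also had 0 of 19, with relaxed summits near 7 records in replicate 1 and 0 in replicate 2. The family of smy-7 had 0 of 6, with relaxed summits near all 6 in replicate 1 and near 1 in replicate 2. The sources used here do not say how reads that align to several copies were handled, so low values in repeated genes and in their flanks cannot be told apart from lost reads.

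**Figure D5:**
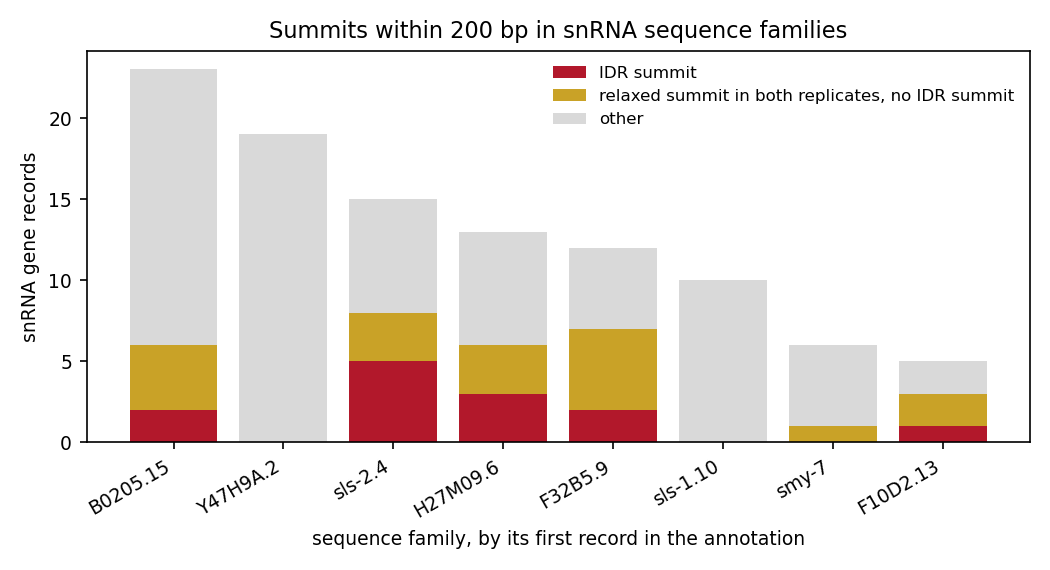
Numbers of snRNA gene records in 8 sequence families, split into those with an IDR summit within 200 bp (red), those with a relaxed summit in both replicates but no IDR summit (gold) and the others (grey). The SL2 family (sls-2.4) has 5 of 15 red and the SL1 family (sls-1.10) none.

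Genes for proteins that work with these RNAs were counted with a window of 1000 bp upstream to 200 bp downstream of a start, which held an IDR summit for 6.51% of 19865 protein-coding gene names. Of the 8 genes of the snoRNP core list 5 matched a gene name, and these 5 were bound (interval 47.8% to 100%): fib-1, encoding fibrillarin (signal 284), Y48A6B.3 (181), nol-56 (168), nola-3 (153) and nol-58 (109). M28.5, K01G5.5 and Y66H1A.4 matched none and were not counted. A list of 9 genes for the SNAP complex and the TATA-binding protein had 8 that matched, and snpc-1.5 was not counted. Of these 8, 2 were bound (25%, interval 3.19% to 65.1%), snpc-3.4 (121) and snpc-1.1 (96.5). A list of 18 genes for snRNA maturation and snRNP proteins had 16 that matched a gene name. Among these 16, 2 were bound (12.5%, interval 1.55% to 38.3%), ints-4 (109) and snpn-1 (117). This interval and that of the SNAP complex list both contain 6.51%. phax-1 and ints-12 matched none and were not counted.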

How the data were processed

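The data were peak lists of 2 biological replicates of 1 group. Per the deposited descriptions, the authors called relaxed lists per replicate and on pooled replicates with a control, which was not analysed here, and derived the IDR list from them. Aligner and caller are not named in the sources used. The signal value (column 7, a score of unstated scale) and the −log10 q-value (column 9) are the authors' deposited values, and signal served only to rank and describe peaks within a list. Depth is unknown.

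A summit was the peak start plus its offset in ce11, numbered from 1. Genes came from Ensembl release 115 (WBcel235), and all 475 members matched RefSeq by identifier, position and biotype. A member was intronic when wholly inside an intron of a protein-coding transcript. No test was made, since there is 1 group. Members and lists were chosen with earlier results of these data known. Members set out for naming were the 30 with the highest signal of the 47 near a summit and those of the 47 with a symbol. To these came the 3 just inside and outside the limit and the best 5 in both relaxed lists. Not all of the 30 are named in the text. Some other members are named for a sequence, a family, a rank or a missing summit. Some gene names stand for several records. Functions were tested on simulated data, where 60 of 60 planted genes among 400 were recovered with 0 false calls. Python 3.11.15, numpy 2.4.6, pandas 2.3.3, scipy 1.17.1 and edlib 1.3.9.post1 were used.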

Additional observations from a re-analysis of the deposited data

How the results depend on the processing

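Of 81 alternative values, 64 stayed within 1.5 times the value given. Taking only the 622 strongest IDR peaks left 22 members near a summit, 11 snRNA and 11 snoRNA genes, 7 intronic and 12 stand-alone genes. Taking the 2488 strongest pooled peaks gave 90 members, 28 snRNA genes, 62 snoRNA genes, 43 intronic and 43 stand-alone genes. A limit of 500 bp gave 31 intronic members near an IDR summit, and relaxed summits in both replicates near 134 snoRNA genes and 88 intronic genes. Requiring a q-value under 0.05 in both replicates left 40 members, 13 snRNA genes, 27 snoRNA genes, 18 intronic and 20 stand-alone genes. With the strongest 1244 peaks of a single replicate, members near a summit numbered 41 to 57, snRNA genes 13 to 15, snoRNA genes 28 to 42, intronic genes 16 to 23, stand-alone genes 22 to 32, those with the paired letters 13 to 14 and those with the B box letters 7 to 13. The alternatives for the letters were chosen after seeing the data, and GGTTCNA upstream in place of GTTCNANNC gave 7. Leaving out the sls-1 genes kept 10 near, of 40 with the box letters. No paired analysis was possible because there is 1 group. The cause of these changes was not tested.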
